A study of Homo sapiens with 3 samples.

Results

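The AP-1 family was described in A375 melanoma cells through 8 genes, FOS, FOSB, FOSL1, FOSL2, JUN, JUNB, JUND and ATF3. They were taken by symbol from the 20344 genes of each deposited table, and all 8 were found. A375 is a human melanoma line with mutant BRAF. The series holds 3 RNA samples, of which 2 had a file and were used, with 1 library each. The sample whose title is A375, Prop gave what is here named the A375 library. A375-VR, Prop gave the A375-VR library, and pairs of values follow this order. The sample A375-VR, DMSO was not analysed here. The series title concerns propranolol, a blocker of beta-adrenergic receptors, and resistance to the BRAF inhibitor vemurafenib, and the abbreviation VR is not spelled out. The extraction protocol names only A375-VR cells, given either DMSO or 20 µM of propranolol over 24 h. The title and cell line label of the first library nevertheless read A375. By their titles both libraries are from cells given the same drug and differ in cell line, whereas the protocol names 1 cell line and 2 treatments. Cell line, treatment, culture and library preparation therefore cannot be told apart as sources of a difference. Without replicates, differences were described and not tested.

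AP-1 is a transcription factor built from pairs of bZIP proteins, in which a basic region holds DNA and a leucine zipper joins the partners. JUN proteins can pair with each other or with a FOS protein, whereas FOS proteins need a partner of another kind, usually a JUN. Several of the genes are immediate early genes, switched on within minutes of a growth or stress signal and without new protein synthesis. In melanoma with mutant BRAF the ERK pathway feeds into the family, chiefly by raising and stabilising FOSL1.

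Values are FPKM, which scales the reads of a gene by its length and by the total of the library. Since FPKM is per length, levels of different genes can be set side by side. The library totals behind the values, worked out from the steps of the FPKM, were 17811339 (A375) and 16438482 (A375-VR). Intervals are 95% and exact, rest on recovered reads, and cover counting error only. Of 8 melanocytic markers, SOX10, MITF and S100B reached 1 FPKM, and PMEL, MLANA, TYR, DCT and TYRP1 stayed under 1 in both libraries. The melanocytic markers summed to 75.8 FPKM against 166.4 FPKM, most of it SOX10 (65.3 and 149.6 FPKM), while MITF was lower in the A375-VR library (6.47 and 3.47 FPKM). Of markers of other cells, 2 of 5 for keratinocytes (sums of 47.8 and 59.5), 2 of 6 for fibroblasts (4.80 and 6.74), 1 of 4 for endothelium (0.568 and 2.07) and 0 of 5 for leukocytes (0.0595 and 1.61) reached 1 FPKM. Most of the keratinocyte sum was KRT10 (44.9 and 56.0 FPKM). The keratinocyte markers KRT1 and DSG3 and the leukocyte markers PTPRC, CD3E and MS4A1 were listed at 0 in both. The part of these differences in the AP-1 values was not tested.

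JUN was the family member that differed most on the log2(FPKM + 1) scale, standing in the A375-VR library at 0.443 times its A375 level. JUNB and JUND were somewhat higher in the A375-VR library, FOSL1 and FOSL2 slightly lower, and FOS and FOSB higher from very low levels. ATF3 could not be told apart between the libraries at this depth. FOSL1 and JUND were the most abundant members in both libraries.

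**Figure D1:**
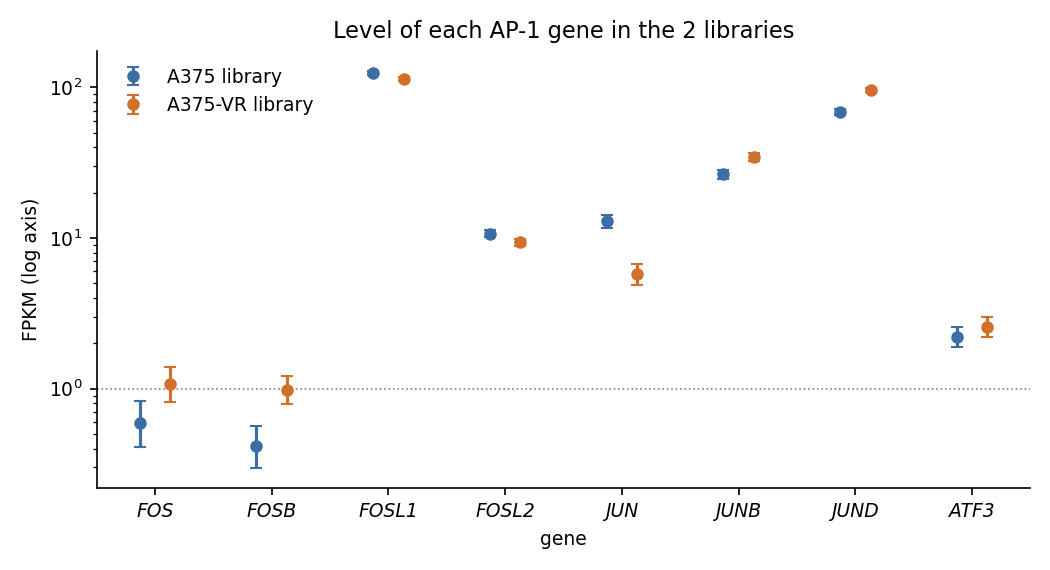
FPKM of the 8 AP-1 genes on a log axis, in the A375 library (blue) and the A375-VR library (orange). Bars are exact Poisson counting intervals and the dotted line marks 1 FPKM; JUN is at 12.9 in the A375 library and 5.74 in the other, while FOSL1 is at 125.0 and 113.4.

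The genes lie on several chromosomes of GRCh37, the build the series names, and positions are from GENCODE. JUN (Entrez 3725) is at 59242517 to 59249720 on the minus strand of chromosome 1. ATF3 (Entrez 467) is at 212738676 to 212794119 on the plus strand of the same chromosome. FOSL2 (Entrez 2355) lies on chromosome 2 at 28615315 to 28640184, plus strand. FOSL1 (Entrez 8061) lies on chromosome 11 at 65659520 to 65668044, minus strand. FOS (Entrez 2353) lies on chromosome 14 at 75745529 to 75748933, plus strand. Chromosome 19 holds JUNB (Entrez 3726) at 12902300 to 12904129, plus strand, JUND (Entrez 3727) at 18390504 to 18392432, minus strand, and FOSB (Entrez 2354) at 45971253 to 45978437, plus strand.

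Promoter windows of 7 of the 8 genes were in the RefSeq table (GRCh38.p14), from 250 bases before to 50 after each start. ATF3 has 2 windows there, and FOSL1 was the gene without an entry. The stretches from 90 to 21 bases before the start are shown for genes that hold TGACG, on either strand, or TGACATCA there. Stretches over an annotated exon were left out. This removed the stretch of FOSL2, which has TGACG 66 bases before its start, and left FOS, FOSB, JUN and JUND. Capitals mark TGACG, the core of the cAMP response element (CRE), on either strand (CGTCA on the other), TGACATCA, an AP-1-like element, and the TATA box TATAAA.
FOS: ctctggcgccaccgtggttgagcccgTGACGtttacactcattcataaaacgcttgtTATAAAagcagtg
FOSB: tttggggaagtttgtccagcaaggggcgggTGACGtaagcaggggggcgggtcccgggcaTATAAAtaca
JUN: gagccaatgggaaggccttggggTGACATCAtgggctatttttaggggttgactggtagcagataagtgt
JUND: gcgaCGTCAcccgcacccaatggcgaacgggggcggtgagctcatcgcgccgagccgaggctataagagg
Each stretch was found once on the chromosome of its gene in GRCh37, at chr14:75745441-75745510 (plus strand) for FOS and chr19:45971164-45971233 (plus strand) for FOSB. The JUN stretch is chr1:59249740-59249809 and the JUND stretch chr19:18392453-18392522, both on the minus strand. By the choice described above, none overlaps an annotated exon.

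FOS and FOSB share an arrangement, with TGACG starting 64 and 60 bases before the start and TATAAA 33 and 30 bases before it. The elements are not theirs alone: JUNB has TATAAA at 31 bases and TGACG at 137, and FOSL2 has TGACG at 66. JUN has TGACATCA, starting 67 bases before its start, and a TGACG at 123 bases. JUND has a full CRE, TGACGTCA, 200 bases before its start, besides the core shown at 86. Over the whole windows and both strands, TGACG was in 6 of the 7 genes and in 24.6% of all 35116 windows, and a full CRE also holds the core. The full CRE was in 1 of 7 and in 1.85% of windows, and TGACATCA in 2 of 7 (JUN and ATF3) and in 2.61%. TATAAA was in 4 of 7 and in 11.5%, and the AP-1 site TGANTCA in 1 of 7 (FOSL2) and in 7.71%. A gene was counted if any of its windows held the motif, whereas the shares are of single windows. ATF3, the gene with 2 windows, has TGACATCA in 1 and TATAAA in the other, 230 bases before the start. The CArG box, the site of serum response factor, was in 0 of 7 genes and in 1.29% of all windows. Bases beyond the windows were not searched, so a site further from the start would be missed. These are matches of letters in a short window and no measure of binding.

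Among the JUN genes, JUN encodes c-Jun, a strong activator and the usual partner of c-Fos. Its level was 12.9 FPKM (11.7 to 14.3) in the A375 library against 5.74 FPKM (4.90 to 6.68) in the A375-VR library. The A375 library was the high one, and the counting intervals did not overlap. The plain ratio of A375-VR to A375 was 0.443 (0.368 to 0.532), from 408 and 167 recovered reads, and the interval reached to both sides of 0.5. On the log2(FPKM + 1) scale the difference was -1.05, and 0.455% of the genes with at least 1 FPKM in at least 1 library had a lower one. By level, JUN ranked 3600 of 20344 genes in the A375 library against 6541 in the A375-VR library.

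JUNB, which activates many promoters more weakly than c-Jun and can oppose it, had 26.5 FPKM (24.8 to 28.3) in the A375 library against 34.6 FPKM (32.5 to 36.7) in the A375-VR library. JUND, the JUN gene that is typically expressed without a stimulus, had 68.5 FPKM (65.7 to 71.4) and 96.0 FPKM (92.5 to 99.5). Both were higher in the A375-VR library, against the direction of JUN, with intervals that did not overlap. The ratios were 1.304 (1.19 to 1.43) for JUNB and 1.40 (1.33 to 1.48) for JUND. The log2(FPKM + 1) differences were 0.37 and 0.48. In the GENCODE annotation the whole of JUNB lies under HOOK2, a gene on the opposite strand with 1.09 and 2.28 FPKM. Whether counting used the strand is not given in the sources used here, so reads of the 2 genes cannot be told apart.

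Because the scaling of a library cancels in a ratio between 2 of its genes, the make-up of the JUN genes could be compared without it. JUNB stood at 2.05 times the level of JUN in the A375 library against 6.02 times in the A375-VR library, so that the ratio was 2.94 times larger (2.39 to 3.62). JUND stood at 5.30 and 16.7 times JUN, a ratio 3.16 times larger (2.61 to 3.83). JUNB against JUND changed little, from 0.387 to 0.360, and the change of 0.931 (0.837 to 1.04) could not be told from 1. As shares of the summed JUN, JUNB and JUND level, JUN made up 11.99% in the A375 library against 4.21% in the A375-VR library. JUNB made up 24.5% and 25.4%, and JUND 63.5% and 70.4%. The sum itself was 108.0 FPKM and 136.3 FPKM, 1.26 times higher in the A375-VR library although JUN was lower.

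**Figure D2:**
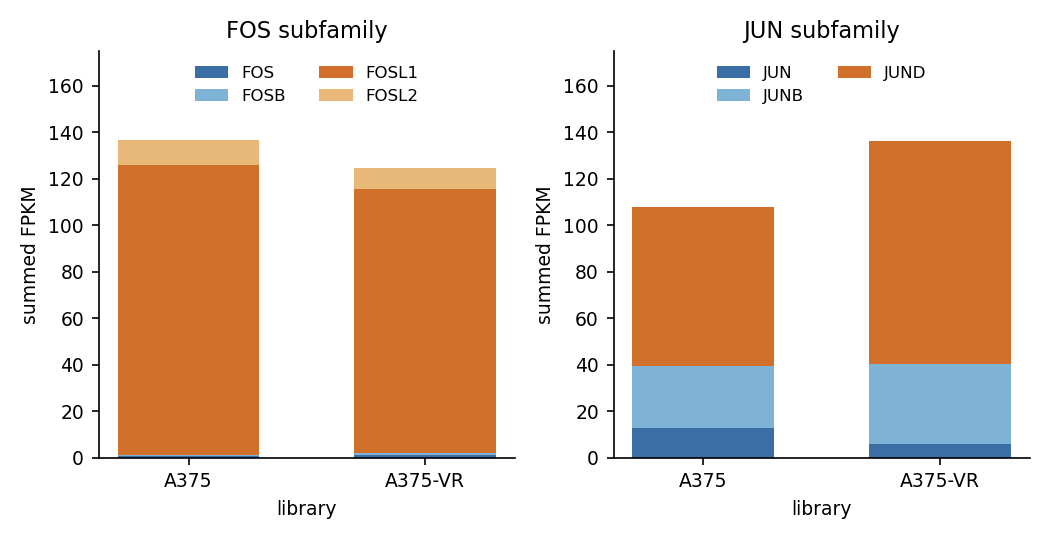
Summed FPKM of the FOS genes (left) and the JUN genes (right) in each library, stacked by gene from an axis that starts at 0. FOSL1 fills 91.5% and 90.9% of the FOS bars, and JUN 11.99% and 4.21% of the JUN bars.

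Among the FOS genes, FOSL1 encodes FRA-1, a FOS protein without the long activation domain of c-Fos that is often abundant in invasive tumour cells. It had 125.0 FPKM (121.2 to 128.8) in the A375 library against 113.4 FPKM (109.7 to 117.2) in the A375-VR library. FOSL1 was thus slightly lower in the A375-VR library, with a ratio of 0.908 (0.868 to 0.949). Its rank was 309 and 328 of 20344 genes. FOSL2, which encodes FRA-2, a close relative of FRA-1, had 10.7 FPKM (10.1 to 11.2) and 9.32 FPKM (8.78 to 9.89). Its ratio of 0.875 (0.807 to 0.948) was of similar size. Part of FOSL2 lies under the antisense gene FOSL2-AS1, which the question of strand touches as well. FOSL1 stood at 11.7 and 12.2 times FOSL2. That change of 1.04 (0.946 to 1.14) could not be told from 1.

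FOS encodes c-Fos, the classical immediate early partner of c-Jun, whose mRNA lasts only minutes. It had 0.590 FPKM (0.408 to 0.824) in the A375 library against 1.07 FPKM (0.811 to 1.39) in the A375-VR library. These rested on 34 and 57 recovered reads, and the intervals overlapped by a little. The ratio was 1.82 (1.17 to 2.87), with a log2(FPKM + 1) difference of 0.38. FOSB, another immediate early gene, had 0.415 FPKM (0.297 to 0.562) and 0.986 FPKM (0.793 to 1.21), from 41 and 90 reads. The A375-VR library was the high one, the intervals did not overlap, and the ratio was 2.38 (1.63 to 3.53). FOSB stayed under 1 FPKM in both libraries and so did not pass the filter of 1 FPKM in at least 1 library. FOSB also lies wholly under ERCC1 on the opposite strand in the GENCODE annotation. ERCC1, a DNA repair gene, had 16.3 and 14.3 FPKM, and how many of the few FOSB reads belong to it cannot be told.

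FOS and FOSB kept to the bottom of the FOS genes in both libraries. FOSL1 stood at 212 times FOS in the A375 library against 106 times in the A375-VR library, and at 301 and 115 times FOSB. Relative to FOSL1, FOS stood in the A375-VR library at 2.00 times (1.28 to 3.16) and FOSB at 2.62 times (1.79 to 3.90) its A375 value. Between FOS and FOSB the ratio changed by 0.764 (0.419 to 1.40), not told from 1. The 4 FOS genes summed to 136.6 FPKM and 124.8 FPKM, and FOS and FOSB together supplied little of either. FOS made up 0.431% and 0.858% of the sum, FOSB 0.303% and 0.790%, FOSL2 7.80% and 7.47%, and FOSL1 91.5% and 90.9%.

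ATF3 encodes a bZIP protein induced by stress that can pair with JUN proteins and often represses transcription. It had 2.21 FPKM (1.88 to 2.58) in the A375 library against 2.56 FPKM (2.19 to 2.97) in the A375-VR library, from 159 and 170 reads. The intervals overlapped. The ratio of 1.16 (0.928 to 1.45) included 1.

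In order of level, the A375 library ran FOSL1, JUND, JUNB, JUN, FOSL2, ATF3, FOS, FOSB. Neighbours whose counting intervals overlapped were FOS and FOSB, while JUN and FOSL2 lay at 12.9 and 10.7 FPKM with intervals that did not meet. The A375-VR library kept this order except that FOSL2, at 9.32 FPKM, stood above JUN, at 5.74 FPKM. FOS and FOSB, at 1.07 and 0.986 FPKM, again overlapped. This order rests on counting error alone, since the spread between cultures was not measured.

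**Figure D3:**
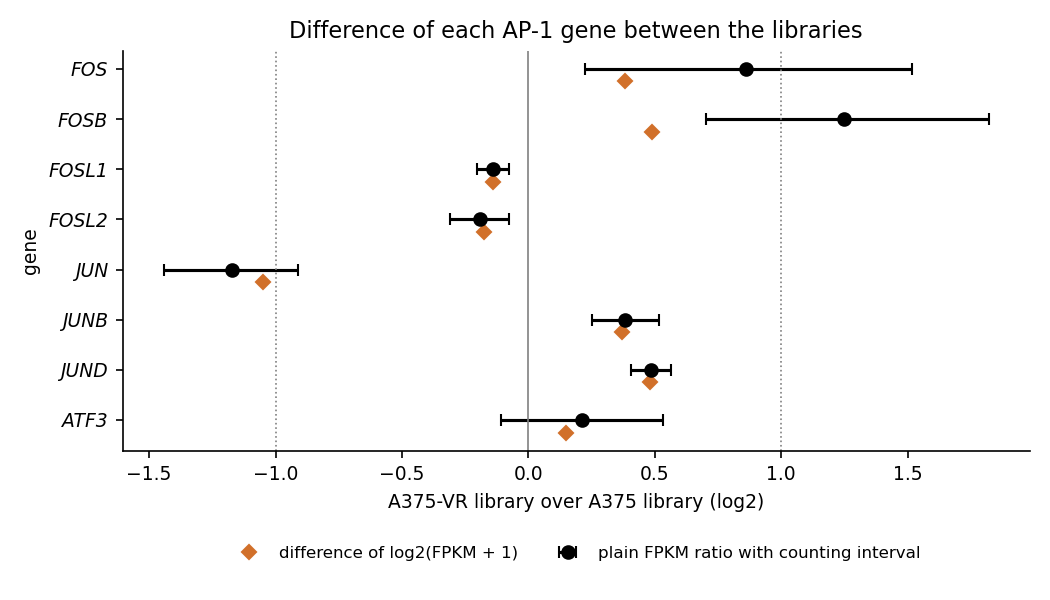
Difference of each AP-1 gene between the libraries on a log2 axis, above 0 where the A375-VR library is higher. Black points are plain FPKM ratios with exact counting intervals, orange diamonds are differences of log2(FPKM + 1), and dotted lines mark 2-fold; JUN is the only gene with its diamond past a dotted line, and FOSB has the largest plain ratio, 2.38.

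A gene was called 2-fold apart at a log2(FPKM + 1) difference of at least 1 in size, among genes past the filter. Of the 7 AP-1 genes past it, 1 (JUN) was at least 2-fold lower in the A375-VR library and 0 were 2-fold higher. Over all 10761 genes past the filter, 66 were 2-fold lower (0.613%) and 338 were 2-fold higher (3.14%). The median difference of the 7 genes was 0.15, beside 0.10 over all genes past the filter. Of the 7 differences, 4 lay above 0 and 3 below, and of all genes past the filter 60.3% lay above 0. The pseudocount holds back the low genes, and FOSB, with its plain ratio of 2.38, differed by 0.49 on this scale.

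Other bZIP genes that can join AP-1 or its sites included several MAF genes with higher values in the A375-VR library. Of 14 listed, 8 passed the filter, 7 of them with a difference above 0, beside 60.3% of all genes. None was 2-fold higher or lower on the log2(FPKM + 1) scale, beside 3.14% and 0.613% of all genes. Their median was 0.51 beside 0.10 for all genes, but 0.17 beside 0 without a filter. The large MAF gene MAF had 0.781 and 2.15 FPKM, a ratio of 2.75 (2.16 to 3.51). The small MAF genes, which lack an activation domain, were higher as well: MAFK had 2.44 and 4.75 FPKM, MAFF 3.84 and 6.83, and MAFG 15.1 and 20.8. ATF7 and ATF2, partners of JUN at CRE sites, had ratios of 1.80 (1.52 to 2.13) and 1.25 (1.11 to 1.41), and BATF2 one of 1.06 (0.833 to 1.35). JDP2, a repressor that pairs with c-Jun, was the exception, at 2.15 and 1.06 FPKM, a ratio of 0.494 (0.390 to 0.622).

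Kinases that act on AP-1 proteins lay around the level of all genes. Of 15 past the filter among 19 listed, 10 were above 0, beside 60.3% of all genes. None was 2-fold higher or lower, beside 3.14% and 0.613% of all genes. The median was 0.09 beside 0.10 for all genes. After scaling by the trimmed mean of log ratios it was -0.02 beside -0.0019. MAPK3, a kinase of the ERK pathway, had 15.2 and 24.6 FPKM, a ratio of 1.61 (1.49 to 1.75). MAP2K6, an activator of p38, had 0.937 and 1.63 FPKM. MAPK8, which encodes the JNK1 kinase of c-Jun, had a ratio of 0.888 (0.784 to 1.01), not told from 1, and MAPK12 one of 0.917 (0.701 to 1.20). RPS6KA4, the kinase MSK2 that acts on CREB and histone H3, was lower, at 30.3 and 19.6 FPKM.

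Transcription factors that bind immediate early promoters had a median of 0.21 beside 0.10 for all genes. With the trimmed mean these were 0.105 and -0.0019. Of 11 past the filter 10 lay above 0, beside 60.3% of all genes. None was 2-fold higher or lower on the log2(FPKM + 1) scale, beside 3.14% and 0.613% of all genes. CREM, a CREB relative whose short ICER form is itself induced by cAMP, had 5.44 and 11.2 FPKM, a plain ratio of 2.06 (1.85 to 2.28). MEF2D had 6.74 and 10.5 FPKM, from at least 48 and 69 reads, and ELK4, an ETS partner of serum response factor, had a ratio of 1.22 (1.05 to 1.41). ATF1 was the 1 below 0, with 25.7 and 21.7 FPKM.

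Genes for turnover of AP-1 mRNA and protein were split. Of 10 past the filter, 5 lay above 0, beside 60.3% of all genes, and 5 below. None was 2-fold higher or lower, beside 3.14% and 0.613% of all genes. The median was -0.03 beside 0.10 for all genes, and it ran from -0.13 to 0.009 over the alternatives. HNRNPD, which encodes the AU-rich element binding protein AUF1, had 72.2 and 42.8 FPKM, a ratio of 0.593 (0.573 to 0.614). KHSRP, another decay factor, had a ratio of 0.731 (0.707 to 0.756), and ELAVL1, the stabilising protein HuR, one of 0.751 (0.711 to 0.793). ZFP36, tristetraprolin, which marks FOS mRNA for decay, went the other way at 4.36 and 5.84 FPKM, a ratio of 1.34 (1.08 to 1.67). ZFP36L1 had a ratio of 1.17 (1.09 to 1.25), and ITCH, a ubiquitin ligase of JUN proteins, one of 1.11 (1.04 to 1.19).

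Other immediate early genes held members that differed in both directions, as did the AP-1 genes. Of 30 listed, 27 passed the filter, 17 above 0 and 10 below, beside 60.3% above 0 among all genes. Their median was 0.18 beside 0.10 for all genes, and 0.076 beside -0.0019 with the trimmed mean. On the log2(FPKM + 1) scale, 2 were at least 2-fold higher, beside 3.14% of all genes, and 3 at least 2-fold lower, beside 0.613%. The 2 higher ones were the nuclear receptors NR4A1, at 2.10 and 6.08 FPKM, and NR4A2, at 0.439 and 1.95 FPKM. EGR3, a zinc finger factor, had 0.173 and 1.32 FPKM from at least 3 and 21 reads, a ratio of 7.58 (2.26 to 39.7). The 3 that were 2-fold lower, in the direction of JUN, were CYR61 (55.7 and 18.2 FPKM), CTGF (50.4 and 16.5 FPKM) and GADD45B (10.1 and 4.30 FPKM). CYR61 and CTGF encode secreted matrix proteins, and GADD45B a stress protein that acts on p38 and JNK signalling.

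Genes known as AP-1 targets also went both ways. Of 29 listed, 23 passed the filter, 16 above 0 and 7 below, which is near the 60.3% above 0 among all genes. At least 2-fold higher were 4, beside 3.14% of all genes, and none was 2-fold lower, beside 0.613%. The median was 0.33 beside 0.10 for all genes. It was 0.19 beside 0 when no filter was used, and 0.51 beside 0.052 with the filter at FPKM 5. SPP1, osteopontin, had 9.55 and 46.3 FPKM, a ratio of 4.85 (4.35 to 5.42). LIF, a cytokine of the interleukin 6 family, had 11.1 and 27.5 FPKM, and HMOX1, haem oxygenase, 14.1 and 32.4 FPKM. The fourth was the integrin gene ITGA2, named after its values were seen, with 5.66 and 12.4 FPKM. The receptor kinase AXL had 51.0 and 26.2 FPKM, a ratio of 0.513 (0.477 to 0.552), KRT18 224.7 and 134.1 FPKM, and the stromelysin MMP3 2.49 and 1.66 FPKM from 91 and 56 reads. Whether AP-1 acts on any of these genes in these cells was not measured.

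**Figure D4:**
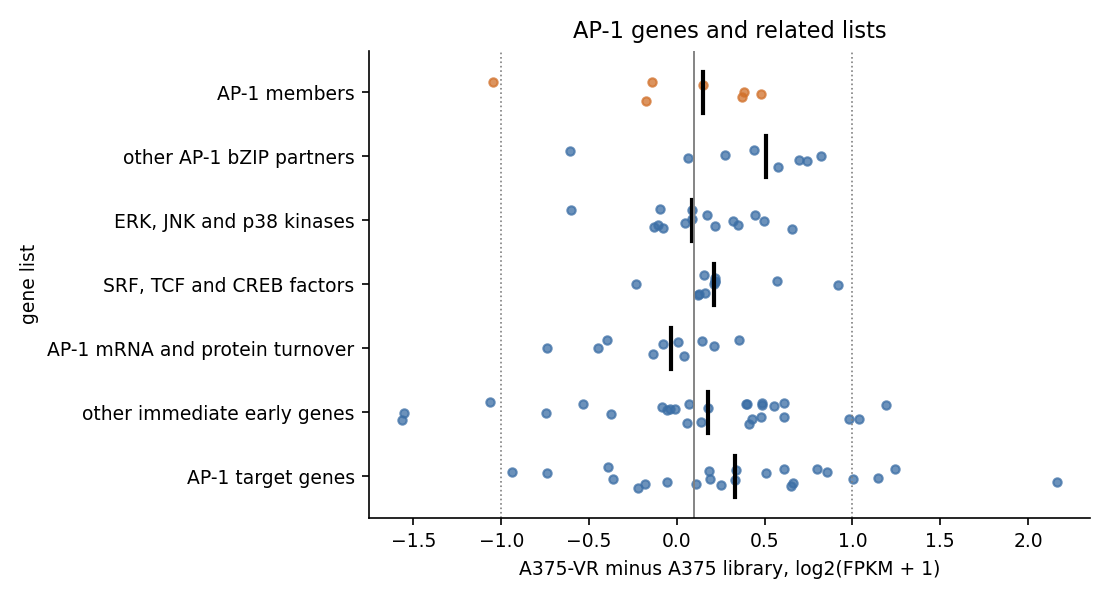
Difference of log2(FPKM + 1), A375-VR minus A375 library, for each gene past the filter (1 point) in the AP-1 family (orange) and 6 related lists (blue), with scatter in height for visibility only. Black bars are list medians, the grey line is the median of all genes at 0.10 and dotted lines mark 2-fold; points of most lists lie on both sides of the grey line, and the medians run from -0.03 to 0.51, in an order that changes with the filter.

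In bulk RNA, fewer cells that express a gene and less of its RNA per cell cannot be told apart, and this holds for the lower JUN and the higher FOS and FOSB alike.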

How the data were processed

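Stranded TruSeq mRNA libraries were sequenced in 150 bp pairs (HiSeq 2000), and TopHat 1.3.3 placed the reads on GRCh37, per the series' design text. How genes were counted, with which annotation, filter and strand setting, is not given in the sources used here. Each deposited table holds FPKM, 1 per gene and library, as the authors scaled them. From these, log2(FPKM + 1) was taken, and genes with at least 1 FPKM in at least 1 library were compared. A difference of at least 1 was called 2-fold. Ratios of FPKM carry no pseudocount. For each gene the fewest whole reads that yield its FPKM were taken, and true counts can be multiples of them, so intervals can be too wide. The ratio of the library totals follows from the values. Their common multiple was the one of 12 under which most gene lengths equalled GENCODE exon lengths: 15.5% of 13581 genes, against 10.7% for the next. Intervals are 95% exact: Poisson for a level, Clopper-Pearson for a ratio between libraries, and the conditional odds ratio for a change of ratio between genes. No count model was run.

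The 8 members and the 6 related lists were chosen with earlier results of these data known. Named genes are the members, all bZIP partners past the filter, and up to 3 genes per list with the largest difference each way. Of the genes this rule takes, 1 is not reported here. In 4 cases a listed symbol was matched to the files through RefSeq synonyms and Entrez number. Steps were tested on simulated data. Computation used Python 3.11.15, SciPy 1.17.1 and pandas 2.3.3. Alternatives were other pseudocounts, filters and scalings.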

Additional observations from a re-analysis of the deposited data

How the results depend on the processing

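JUN stayed at least 2-fold lower under all 8 alternatives, between -1.17 and -1.05, and no AP-1 gene turned direction under any alternative run. The plain ratio among them was added after seeing the data. A filter leaves the difference of a gene as it is, and a smaller or absent pseudocount can only enlarge it. Only the scalings could therefore turn a direction or take JUN below 2-fold, and FOSB was compared under none of them. FOSL1 moved from -0.14 to -0.23 after centring on the median ratio and -0.25 with the trimmed mean. JUND moved likewise from 0.48 to 0.39 and 0.36. FOSB, under 1 FPKM in both libraries, could be compared under 2 alternatives, and FOS and ATF3, under 5 FPKM, under 7. With that filter, which leaves FOSL1, FOSL2, JUN, JUNB and JUND, the median of the AP-1 genes turned to -0.14. It was 0.083 after centring on the median ratio, 0.067 with the trimmed mean and 0.26 without a filter, against 0.15 as reported. The trimmed mean turned the kinase median to -0.018, and without a filter the turnover median was 0.00908. Other list medians moved by over 1.5 times: without a filter the bZIP partners had 0.17 and the targets 0.19, at FPKM 5 the targets had 0.51, above the 0.44 of the bZIP partners, and the immediate early genes 0.10. With the trimmed mean the SRF, TCF and CREB factors had 0.105, the immediate early genes 0.076 and the targets 0.22. The turnover median was -0.13 with it, -0.11 after centring, -0.078 at FPKM 5, -0.012 after rescaling to a common sum and -0.0081 without mitochondrial genes in that sum. Centring gave 0.002 for the kinases, 0.13 for the SRF, TCF and CREB factors and 0.096 for the immediate early genes. Over all genes the median was 0 without a filter, 0.052 at FPKM 5, 0.017 after centring and -0.0019 with the trimmed mean. It was 0.13 after rescaling to a common sum, also without mitochondrial genes in that sum. Counts over all genes moved to 689 higher and 140 lower with a pseudocount of 0.1, 624 and 104 after rescaling to a common sum, 640 and 106 when mitochondrial genes were left out of that sum, and 272 and 101 with the trimmed mean. The share of called genes that were higher was 83.7% as reported, 74.7% after centring on the median ratio and 72.9% with the trimmed mean. Without the most abundant gene in the sum, FOS made up 5.05% and 9.41% of the remaining FOS genes in the A375 and A375-VR libraries, FOSB 3.55% and 8.66%, and FOSL2 91.4% and 81.9%. Without JUND, JUN made up 32.8% and 14.2%, and JUNB 67.2% and 85.8%. These shares moved because the largest part of the sum was removed. No paired analysis was possible because each group has 1 library. Depth limits FOS and FOSB most, at 34 to 90 reads.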
